A study of Mus musculus with 9 samples.

Results

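Immediate early transcription factors were followed in blood RNA of mice with collagen-induced arthritis (CIA) and after irradiation with terahertz waves. The 10 genes were Fos, Fosb, Fosl2, Jun, Junb and Jund of the AP-1 family, Egr1, and the rapidly induced regulators Ier2, Ier5 and Btg2. They were chosen by symbol, and all 10 were found among the 20926 genes measured. The study had 9 libraries, each from a different male DBA/1 mouse given as 7 weeks old, with 3 mice in each group. In the paper, 7 weeks is the age at which the mice were divided into groups. Immunization, a booster and the 14 days of irradiation came after that, so blood was drawn at an older age, which is not given. The Ctrl mice were labelled as not irradiated and had no arthritis. The CIA mice had been immunized with chick type II collagen in Freund's adjuvant, which gives a joint inflammation used as a model of rheumatoid arthritis. The CIA+THz mice had the same induction of arthritis and were exposed at the swollen ankle to 0.1 THz, 30 min daily on 14 days. After it, the paper reported less joint swelling and cartilage damage in CIA+THz than in CIA mice, so the severity of disease differed between these groups. The exposure was done under isoflurane, and whether the Ctrl and CIA mice were anaesthetised too is not given in the sources used here.

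Immediate early genes are transcribed within minutes of a signal, because the factors that switch them on are already present in the cell and only need to be phosphorylated. Their messages are short-lived. Fos and Jun proteins pair through a leucine zipper to form AP-1, which binds DNA and drives a second wave of genes, and in blood they are known for their response to cytokines, adhesion and stress in neutrophils, monocytes and lymphocytes. Handling of blood is also known to induce them, and the time from bleeding to RNA extraction is not given in the sources used here.

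The values were FPKM, in which the fragments of a gene are divided by its length and by the total of that library, so that levels can be set side by side between genes. Each library was rescaled with a single factor between 0.847 and 1.24, and all levels below are rescaled FPKM. Fold changes are differences in log2(rescaled FPKM + 0.1), tested with limma over the 12366 genes with a mean of at least 0.1, a filter that all 10 members passed. A gene was called when its unadjusted p was under 0.05 and its log2 fold change was above 0.67 in size, the thresholds of the study's methods, and the Benjamini-Hochberg adjusted p is given beside it. With FPKM as deposited, the median log2 fold change of all genes stood 0.03 higher in CIA against Ctrl, 0.27 higher in CIA+THz against CIA and 0.30 higher in CIA+THz against Ctrl, so small differences of CIA+THz depend on the scaling. On rescaled values 363 genes were called higher and 198 lower in CIA+THz against CIA, and as deposited 1133 of 1199 called genes were higher. For CIA+THz against Ctrl these counts were 574 higher and 401 lower, and as deposited 1600 of 1720 were higher. FPKM gives no read counts, and the number of genes above 0, between 11801 and 12807 per library, was highest in the CIA+THz libraries. The samples are labelled as blood leukocytes, whereas the protocol speaks of total blood. Alas2, the haem synthesis enzyme of red cell precursors, took 11.4% to 14.0% of the summed FPKM in CIA+THz and 14.4% to 16.7% in the other libraries. The p-values measure the spread between these mice, and the comparisons share libraries with each other.

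Promoter windows of 250 bases upstream of the start site, from RefSeq on GRCm38.p6, were matched for 8 of the 10 members, with Ier2 and Egr1 not among them. Those of Fos (chr12:85473640-85473889, plus strand) and Fosb (chr7:19310046-19310295, minus strand) are shown because these were the members whose levels followed each other most closely. Those of Fosl2 (chr5:32136222-32136471, plus strand), Junb (chr8:84978749-84978998, minus strand) and Btg2 (chr1:134079156-134079405, minus strand) are shown because these members had a p under 0.05 across the 3 groups, all with their lowest mean in CIA+THz. Each runs 5′ to 3′ along the strand of its gene and ends at the last base before the start site. Capitals mark TGACG, the core of the cAMP response element, TGACGTCA, the full element, TATAAA, the TATA box, and GCGNGGGCG, the site of the Egr factors.
Fos: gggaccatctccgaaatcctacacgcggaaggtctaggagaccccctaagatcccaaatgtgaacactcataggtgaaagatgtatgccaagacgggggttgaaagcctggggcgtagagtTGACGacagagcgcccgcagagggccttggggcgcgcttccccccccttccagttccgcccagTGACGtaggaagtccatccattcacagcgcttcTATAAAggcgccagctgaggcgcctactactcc
Fosb: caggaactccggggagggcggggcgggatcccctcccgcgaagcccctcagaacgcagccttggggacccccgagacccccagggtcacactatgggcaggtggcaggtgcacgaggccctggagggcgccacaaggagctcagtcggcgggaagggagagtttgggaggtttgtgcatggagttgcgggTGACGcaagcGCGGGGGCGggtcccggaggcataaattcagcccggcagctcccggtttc
Fosl2: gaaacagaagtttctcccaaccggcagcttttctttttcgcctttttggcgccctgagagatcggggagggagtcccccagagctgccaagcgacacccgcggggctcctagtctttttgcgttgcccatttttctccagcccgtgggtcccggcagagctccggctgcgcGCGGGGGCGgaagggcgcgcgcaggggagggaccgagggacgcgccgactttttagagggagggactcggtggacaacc
Junb: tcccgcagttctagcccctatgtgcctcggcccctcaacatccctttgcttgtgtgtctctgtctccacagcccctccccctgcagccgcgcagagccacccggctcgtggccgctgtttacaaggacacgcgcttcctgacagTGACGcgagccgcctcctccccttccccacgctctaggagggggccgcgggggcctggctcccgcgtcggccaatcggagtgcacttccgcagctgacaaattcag
Btg2: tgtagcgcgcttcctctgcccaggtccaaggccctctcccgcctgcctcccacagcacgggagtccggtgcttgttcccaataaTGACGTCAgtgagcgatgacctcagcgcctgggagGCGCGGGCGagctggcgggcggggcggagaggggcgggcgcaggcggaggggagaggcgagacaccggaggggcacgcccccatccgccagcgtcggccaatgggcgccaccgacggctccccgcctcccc

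The motifs were searched on both strands, and each full cAMP response element also holds 2 cores. The Fos window held cores 129 to 125 and 66 to 62 bases upstream and a TATA box 33 to 28 bases upstream. The Fosb window held a core 60 to 56 bases upstream and an Egr site 50 to 42 bases upstream, the Fosl2 window an Egr site 79 to 71 bases upstream, and the Junb window a core 106 to 102 bases upstream. The Btg2 window held the full element 166 to 159 bases upstream and an Egr site 131 to 123 bases upstream. Over all 27025 genes with a window, 19.8% held a core against 4 of the 8 members, 1.77% the full element against 1, 14.3% a TATA box against 1, and 5.33% an Egr site against 3. The AP-1 site TGANTCA, held by 7.82% of genes, and the CArG box of serum response factor, held by 1.62%, were in none of the 8 windows. These are matches of letters and not measured binding sites, and sites more than 250 bases upstream were not searched. The Jund window, 1 of the 8, ended at base 70697738 of chromosome 8, before the annotated gene start at 70698949. The Fosl2 window lay inside the gene as annotated, which starts at base 32135801 of chromosome 5, so it is upstream of the RefSeq start site only.

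The members covered a wide range of levels. Btg2, Ier5, Junb, Fosl2, Ier2 and Fos were abundant, with means over the 9 libraries of 83.4, 73.2, 70.8, 58.6, 57.9 and 47.9. Fos stood above 89.5% and Btg2 above 93.8% of the genes tested. Jund had a mean of 16.1, although no library was near that value. Jun had a mean of 4.90, Egr1 of 1.36 and Fosb of 0.479, so that their values rest on fewer fragments than those of the abundant members. Neighbours in this order from Btg2 to Fos overlapped in their values over the 9 mice.

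**Figure D1:**
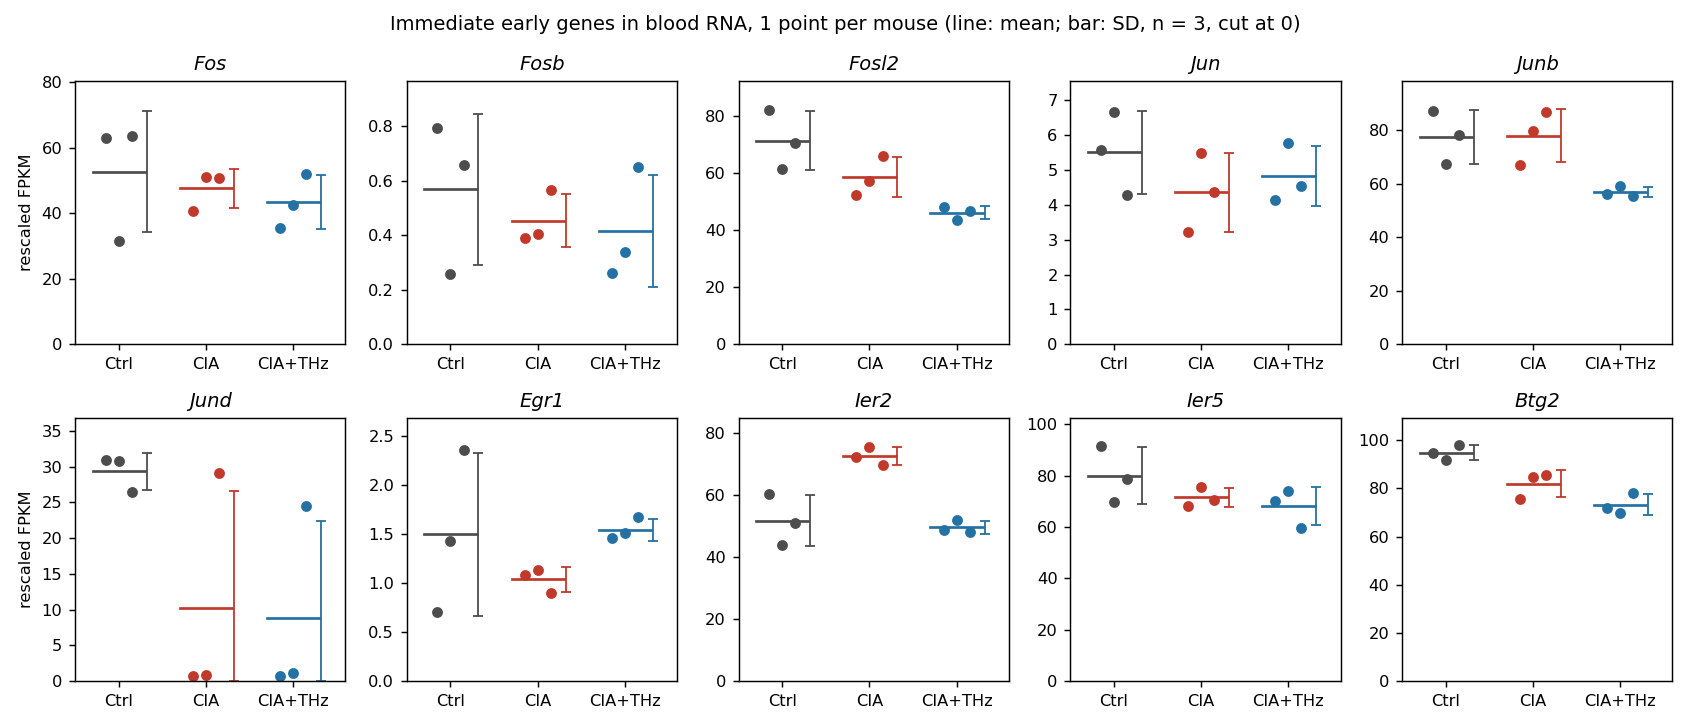
Rescaled FPKM of the 10 members by group, with 1 point per mouse, a line at the mean and a bar of 1 SD (n = 3, cut at 0). The CIA mice stand above all others for Ier2, between 69.7 and 75.6, and Jund splits into libraries near 1 and libraries above 24.5 in both arthritic groups.

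Ier2, a short intronless gene (chromosome 8 of GRCm38, 84661331 to 84662852, minus strand, 1 exon) whose product acts in the nucleus, was the member with the lowest p in CIA+THz against CIA. In Ctrl its rescaled FPKM was 60.2, 43.9 and 51.0, in CIA it was 72.3, 75.6 and 69.7, and in CIA+THz it was 48.6, 51.9 and 48.2. All 3 CIA mice lay above all 6 other mice, and the Ctrl and CIA+THz mice overlapped. The Ctrl mean was 51.7 ± 8.20 (SD, n = 3), the CIA mean was 72.6 ± 2.96 and the CIA+THz mean was 49.6 ± 2.02.

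The Ier2 log2 fold change was 0.50 in CIA against Ctrl (SE 0.14, 95% interval 0.18 to 0.82), with an unadjusted p under 0.05 and adjusted p = 0.153 by limma. Here 8.85% of all genes had a p under 0.05 in the higher direction, and 11.8% had all CIA mice above all Ctrl mice. The log2 fold change was -0.55 in CIA+THz against CIA (SE 0.08, 95% interval -0.74 to -0.35), with an unadjusted p under 0.05 and adjusted p = 0.172 by limma. There 7.33% of genes had a p under 0.05 in the lower direction, 10.2% did not overlap in that direction, and no gene had an adjusted p under 0.05 (the smallest was 0.164), while 1634 had an unadjusted p under 0.05. Neither Ier2 difference reached the fold threshold of 0.67. The CIA+THz against Ctrl difference was -0.05 (95% interval -0.36 to 0.26), and 0.26 with FPKM as deposited.

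The lower Ier2 of CIA+THz against CIA kept its direction under the other scalings and without each mouse, but its size moved with the scaling. It was -0.27 with FPKM as deposited, -0.33 when libraries were scaled to 12 ubiquitous genes, and between -0.58 and -0.52 without each mouse in turn, with an unadjusted p under 0.05 by limma in all of these fits. The higher Ier2 of CIA against Ctrl was 0.53 as deposited, and 0.28 with the ubiquitous scaling, where its unadjusted p was above 0.05. Levels of monocyte markers moved in the same direction as Ier2 in these comparisons. All 12 stood above Ctrl in the CIA mice (median log2 fold change 0.99), and 10 were below CIA in the irradiated mice (median -0.28). Against Ctrl, however, 10 of the 12 were higher in CIA+THz (median 0.79), where Ier2 gave -0.05. The summed rescaled FPKM of these markers was 3230 to 3545 in Ctrl, 5550 to 6200 in CIA and 3786 to 4062 in CIA+THz. Monocyte markers were not alone in this. Of the 12 ubiquitous genes, 10 rose from Ctrl to CIA (median log2 fold change 0.24) and 11 fell from CIA to CIA+THz (median -0.16). Against Ctrl, their median in CIA+THz was 0.04, beside -0.05 for Ier2 and 0.79 for the monocyte markers. The part of monocytes in the Ier2 values was not tested, nor was the likeness to the ubiquitous genes. In RNA of bulk blood alone, more cells of a type and more RNA per cell cannot be told apart. The paper also counted blood cells in these groups, and reported lymphocytes, neutrophils and monocytes raised in CIA and less raised in CIA+THz.

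Ratios between members inside a library do not depend on the scaling, and those given here were picked after the values had been seen, so they carry no test. Ier5 is a relative of Ier2 in the same gene family, and Ier2 over Ier5 was 0.657, 0.629 and 0.648 in the Ctrl mice, 1.06, 0.999 and 0.987 in the CIA mice, and 0.691, 0.699 and 0.807 in the CIA+THz mice. The CIA mice stood apart from both other groups, and the CIA+THz mice were all above the Ctrl mice. Ier2 over Btg2 was 0.478 to 0.635 in Ctrl, 0.813 to 0.955 in CIA and 0.616 to 0.743 in CIA+THz, again with all CIA mice highest. Of the 9 ratios of Ier2 to another member, all CIA mice were highest in 3, those to Ier5, Btg2 and Jun, and not in the other 6. Ier2 over Junb was 0.652 to 0.690 in Ctrl, 0.804 to 1.08 in CIA and 0.862 to 0.878 in CIA+THz, so here the arthritic groups overlapped and both stood above Ctrl.

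**Figure D2:**
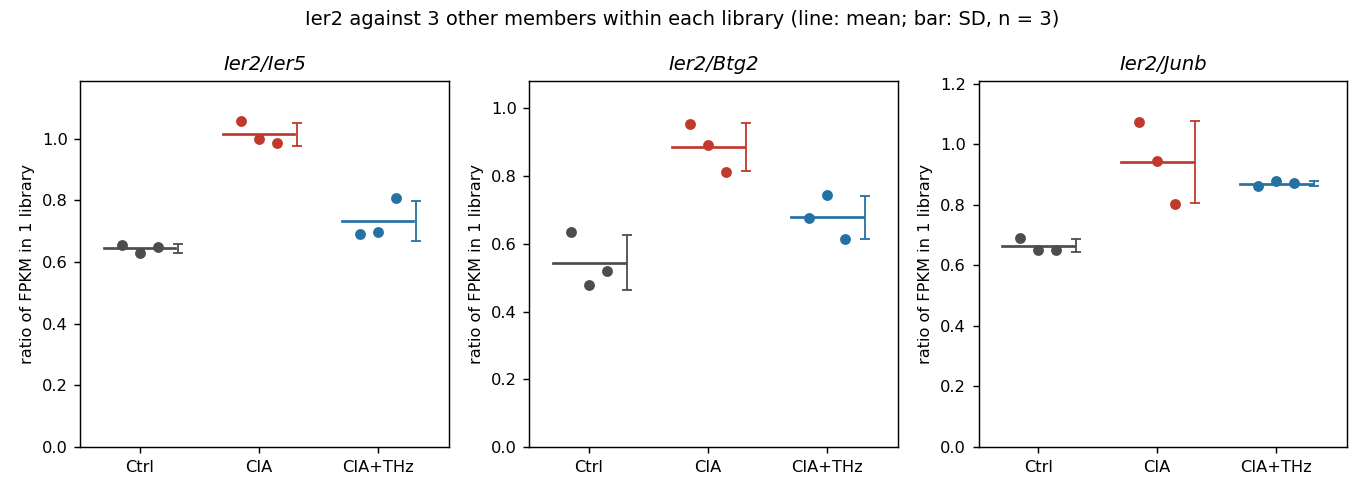
Ratio of the FPKM of Ier2 to that of Ier5, Btg2 and Junb within each library, with 1 point per mouse, a line at the mean and a bar of 1 SD (n = 3). The CIA mice have the highest ratios to Ier5 (0.987 to 1.06) and to Btg2, whereas CIA and CIA+THz overlap for the ratio to Junb.

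Ier5 (chromosome 1 of GRCm38, 155096361 to 155099636, minus strand, 1 exon), itself a target of heat shock factor, varied little. It was 91.7, 69.8 and 78.7 in Ctrl, 68.3, 75.7 and 70.6 in CIA, and 70.3, 74.2 and 59.7 in CIA+THz. All 3 groups overlapped. The log2 fold changes were -0.15 (95% interval -0.46 to 0.15) in CIA against Ctrl, -0.08 (-0.33 to 0.18) in CIA+THz against CIA, which became 0.20 with FPKM as deposited, and -0.23 (-0.55 to 0.09) in CIA+THz against Ctrl, which became 0.08. With the ubiquitous scaling, CIA against Ctrl was -0.37 with an unadjusted p under 0.05. The adjusted p were 0.579, 0.79 and 0.41 by limma.

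Among the Jun family, Junb, a partner of Fos proteins that often restrains the growth-promoting activity of Jun, was lower in CIA+THz. Its rescaled FPKM was 87.4, 67.3 and 78.2 in Ctrl, 67.2, 79.9 and 86.7 in CIA, and 56.4, 59.1 and 55.3 in CIA+THz. All CIA+THz mice lay below all 6 other mice, and the Ctrl and CIA mice overlapped. With FPKM as deposited the CIA+THz mice overlapped with both other groups. On rescaled values 10.2% of all genes did not overlap in the lower direction against CIA, and 12% against Ctrl. Against CIA the log2 fold change was -0.45 (SE 0.11, 95% interval -0.71 to -0.18, adjusted p = 0.236 by limma) and against Ctrl it was -0.44 (SE 0.12, 95% interval -0.71 to -0.17, adjusted p = 0.14). Neither passed the fold threshold. Both had an unadjusted p under 0.05, also without each mouse in turn, but not with FPKM as deposited, where the differences were -0.17 and -0.13, nor against CIA with the ubiquitous scaling, where it was -0.23. CIA against Ctrl gave 0.01 (95% interval -0.34 to 0.35), and -0.21 with the ubiquitous scaling. Junb (chromosome 8 of GRCm38, 84974484 to 84978718, minus strand) overlaps Prdx2, a peroxiredoxin abundant in red cells, on the opposite strand over 173 exonic bases, which are 7.52% of the exonic length of Junb. The library kit does not mark strand, and Prdx2 had rescaled FPKM between 445 and 1168, so that reads in those bases could be counted for either gene.

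Jun, the founding partner of Fos (chromosome 4 of GRCm38, 95049034 to 95052222, minus strand, 1 exon), was 5.58, 6.66 and 4.29 in Ctrl, 3.23, 5.49 and 4.36 in CIA, and 4.15, 5.79 and 4.54 in CIA+THz. The groups overlapped throughout. The log2 fold changes were -0.34 (95% interval -0.99 to 0.31), 0.16 (-0.43 to 0.75) and -0.18 (-0.72 to 0.36) in the order CIA against Ctrl, CIA+THz against CIA, and CIA+THz against Ctrl, and the last was 0.12 with FPKM as deposited. The adjusted p were 0.569, 0.813 and 0.717 by limma.

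Jund, the Jun protein usually present in resting cells, had values on separate levels. It was 30.9, 30.7 and 26.4 in the Ctrl mice, 0.647, 0.831 and 29.1 in the CIA mice, and 0.737, 1.06 and 24.5 in the CIA+THz mice. In each arthritic group 2 mice were near 1 and the third was close to the Ctrl mice, so the lowest of the 5 high libraries was 23.2 times the highest of the 4 low ones. The log2 fold change was -3.43 in CIA against Ctrl (SE 1.29, 95% interval -6.45 to -0.41, adjusted p = 0.241 by limma), and -3.35 in CIA+THz against Ctrl (SE 1.15, 95% interval -6.05 to -0.65, adjusted p = 0.203), both past the criterion on unadjusted p. These calls rest on 2 of 3 mice in each arthritic group. The call in CIA against Ctrl was lost without any 1 of the 3 Ctrl mice, where the change was -3.50 to -3.39, and without CIA mouse 1 (-2.50) or CIA mouse 2 (-2.65), while it was -5.14 and called without CIA mouse 3. That in CIA+THz against Ctrl was likewise lost without any 1 of the Ctrl mice (-3.43 to -3.31) and without CIA+THz mouse 1 (-2.46) or mouse 2 (-2.70), and was -4.90 and called without CIA+THz mouse 3. CIA+THz against CIA gave 0.08 (95% interval -4.16 to 4.32), an interval too wide to place the difference.

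Jund was the only member called in either comparison with Ctrl, against 9.04% of all genes called in CIA against Ctrl and 7.88% in CIA+THz against Ctrl. Between CIA+THz and CIA no member was called, against 4.54% of all genes. All CIA+THz mice lay below all Ctrl mice for Jund, as for Fosl2, Junb and Btg2, which held for 12% of all genes in the lower direction. With FPKM as deposited the CIA+THz and Ctrl mice overlapped for each of these members. The pooled SD of Jund within groups, on rescaled values, was 2.31 on the log2 scale. It was larger than that of 99.7% of the genes tested, and the 4th largest among 2993 genes of similar level. The highest and lowest mice differed 45.0-fold within CIA and 33.3-fold within CIA+THz, but 1.17-fold within Ctrl. Of 4195 genes with a mean of at least 10, 17 differed over 10-fold between mice of a group. Among 9748 genes with a mean of at least 1, Jund was the only gene for which all 5 of the high libraries exceeded all 4 of the low ones by more than 4-fold, sets that its own values define, and no gene showed the reverse. Jund is annotated with a single exon (chromosome 8 of GRCm38, 70698949 to 70700616, plus strand, 1668 bases), with an antisense gene, Gm11175, on the other strand. The cause of the separate levels was not tested.

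**Figure D3:**
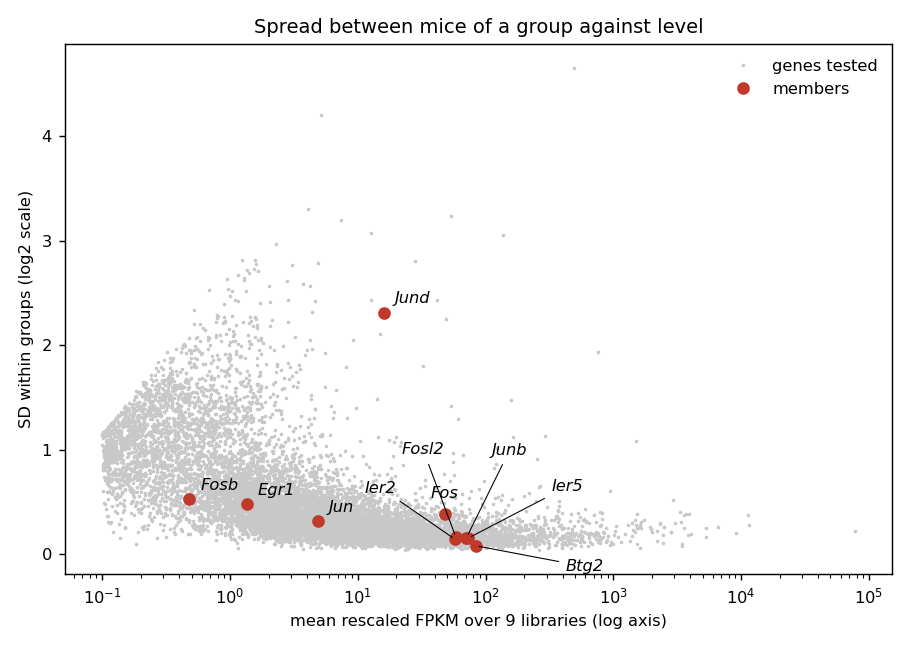
Pooled SD within groups on the log2 scale against the mean rescaled FPKM over 9 libraries (log axis), with grey points for the genes tested and red points for the members. Jund lies at an SD of 2.31 far above genes of its level, Fos lies at the upper edge for its level, and Btg2 lies at the lower edge.

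Among the Fos family, Fos itself (chromosome 12 of GRCm38, 85473890 to 85477273, plus strand, 4 exons) was 63.0, 31.5 and 63.7 in Ctrl, 40.7, 51.2 and 50.9 in CIA, and 35.6, 42.6 and 52.0 in CIA+THz. Ctrl mouse 2 was the lowest of all 9, the other Ctrl mice were the highest, and the groups overlapped. The log2 fold changes were -0.09 (95% interval -0.74 to 0.57, adjusted p = 0.907) in CIA against Ctrl, -0.14 (-0.53 to 0.25, adjusted p = 0.745) in CIA+THz against CIA and -0.23 (-0.90 to 0.44, adjusted p = 0.712) in CIA+THz against Ctrl by limma, and the last 2 were 0.14 and 0.08 with FPKM as deposited. Without Ctrl mouse 2, Fos was -0.42 in CIA and -0.56 in CIA+THz against Ctrl, both with an unadjusted p under 0.05, so that this mouse decided on which side of 0.05 the comparisons fell. In Ctrl the same mouse was also the lowest for Fosb, Fosl2, Junb, Ier2, Ier5 and Btg2, and it was the highest for Jun. The SD of Fos within groups was 0.39 on the log2 scale, larger than that of 94.9% of the 1614 genes of similar level.

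Fosb (chromosome 7 of GRCm38, 19302696 to 19310051, minus strand, 4 exons), which forms AP-1 with the same Jun partners, was the least abundant member. It was 0.792, 0.259 and 0.656 in Ctrl, 0.388, 0.406 and 0.566 in CIA, and 0.261, 0.337 and 0.649 in CIA+THz. The mice low or high for Fos were also low or high for Fosb, and across the 9 libraries the Pearson correlation of their log2 values was 0.932 (0.927 within groups). These points share the depth and scaling of their library. The Fosb intervals were wide, at -1.38 to 1.01 in CIA against Ctrl, -1.16 to 0.84 in CIA+THz against CIA and -1.59 to 0.90 in CIA+THz against Ctrl, and the adjusted p were 0.887, 0.904 and 0.771 by limma.

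**Figure D4:**
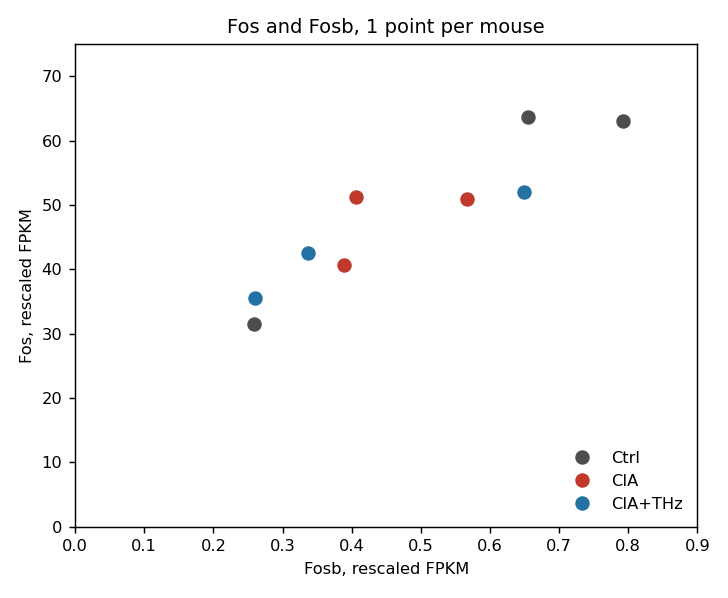
Rescaled FPKM of Fos against that of Fosb, with 1 point per mouse coloured by group. Both genes are lowest in Ctrl mouse 2 (31.5 for Fos and 0.259 for Fosb) and highest in the other Ctrl mice.

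Fosl2, the Fos relative also known as Fra-2 (chromosome 5 of GRCm38, 32135801 to 32157842, plus strand, 4 exons), was 81.9, 61.3 and 70.4 in Ctrl, 52.4, 57.0 and 66.0 in CIA, and 48.1, 43.5 and 46.7 in CIA+THz. All CIA+THz mice lay below all 6 others, and Ctrl and CIA overlapped. With FPKM as deposited the CIA+THz mice overlapped with both other groups. On rescaled values 10.2% of all genes did not overlap in the lower direction against CIA, and 12% against Ctrl. The rescaled means of Fosl2 were 71.2 ± 10.3 (SD, n = 3), 58.5 ± 6.92 and 46.1 ± 2.35. CIA+THz against Ctrl gave -0.62 (SE 0.13, 95% interval -0.91 to -0.32, adjusted p = 0.0992 by limma), the smallest adjusted p of any member between pairs of groups, and its unadjusted p stayed under 0.05 without each mouse in turn. As deposited it was -0.31, with an unadjusted p above 0.05. CIA+THz against CIA gave -0.34 (SE 0.11, 95% interval -0.60 to -0.08, adjusted p = 0.293) with an unadjusted p under 0.05. That p was above 0.05 as deposited (-0.06), with the ubiquitous scaling (-0.12) and without CIA+THz mouse 2 (-0.30). CIA against Ctrl gave -0.28 (95% interval -0.63 to 0.07, adjusted p = 0.373), and its unadjusted p was under 0.05 without Ctrl mouse 2 (-0.38) and with the ubiquitous scaling (-0.50).

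Egr1, a zinc finger factor that binds GC-rich sites, was 0.704, 1.43 and 2.36 in Ctrl, 1.08, 1.14 and 0.894 in CIA, and 1.46, 1.51 and 1.67 in CIA+THz. All CIA+THz mice were above all CIA mice, as for 9.38% of all genes, and the Ctrl mice spread over the range of both. The log2 fold change in CIA+THz against CIA was 0.54 (SE 0.26, 95% interval -0.08 to 1.15, adjusted p = 0.425 by limma), with an unadjusted p above 0.05. As deposited it was 0.80, and with the ubiquitous scaling 0.74, so that Egr1 passed the criterion under both of these scalings. The differences from Ctrl were -0.35 (95% interval -1.46 to 0.76) in CIA and 0.18 (-0.83 to 1.20) in CIA+THz, with adjusted p of 0.743 and 0.864.

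Btg2 (chromosome 1 of GRCm38, 134075170 to 134079120, minus strand, 2 exons), an antiproliferative regulator of mRNA decay, was the most abundant and the least variable member. It was 94.8, 91.8 and 98.0 in Ctrl, 75.7, 84.7 and 85.8 in CIA, and 71.9, 69.8 and 78.3 in CIA+THz. All arthritic mice were below all Ctrl mice, and CIA and CIA+THz overlapped. In that direction 11.8% of genes did not overlap in CIA against Ctrl, and 12% in CIA+THz against Ctrl. With FPKM as deposited both arthritic groups overlapped with Ctrl for Btg2. On rescaled values its SD within groups was 0.08 on the log2 scale, and only 0.88% of the genes tested had a smaller one. CIA+THz against Ctrl gave -0.37 (SE 0.09, 95% interval -0.59 to -0.16, adjusted p = 0.137 by limma) with an unadjusted p under 0.05, and -0.07 with FPKM as deposited, where that p was above 0.05. CIA against Ctrl gave -0.21 (95% interval -0.45 to 0.03, adjusted p = 0.339), or -0.43 with an unadjusted p under 0.05 with the ubiquitous scaling. CIA+THz against CIA gave -0.16 (95% interval -0.38 to 0.06, adjusted p = 0.495), or 0.12 as deposited.

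Taking p alone, the members under 0.05 were Ier2 (higher) and Jund (lower) in CIA against Ctrl, where 8.45% of genes were so in the lower direction. Against CIA, the CIA+THz mice had Ier2, Junb and Fosl2 under 0.05, all lower, against 7.33% of genes. Against Ctrl they had Fosl2, Junb, Btg2 and Jund under 0.05, all lower, against 9.69% of genes. By limma, no member reached an adjusted p under 0.05 in any comparison. Across the 3 groups, limma's moderated F-test gave a p under 0.05 for 4 of the 10 members, against 21.3% of all genes. These were Ier2 (adjusted p = 0.0595), Fosl2 (adjusted p = 0.0717), Junb (adjusted p = 0.115) and Btg2 (adjusted p = 0.133), and with FPKM as deposited 1 member had a p under 0.05. The median log2 fold change of the 10 members was -0.20 for CIA and -0.29 for CIA+THz against Ctrl, and -0.15 for CIA+THz against CIA, beside medians over all genes tested of -0.01, 0.04 and 0.03. In these comparisons 8, 9 and 7 members were lower, and with FPKM as deposited 8, 5 and 3, with members' medians of -0.17, 0.01 and 0.13, so that the last 2 turned in sign. With the ubiquitous scaling 9, 9 and 3 were lower. On rescaled values 50.5%, 46.1% and 46.8% of all genes were lower.

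**Figure D5:**
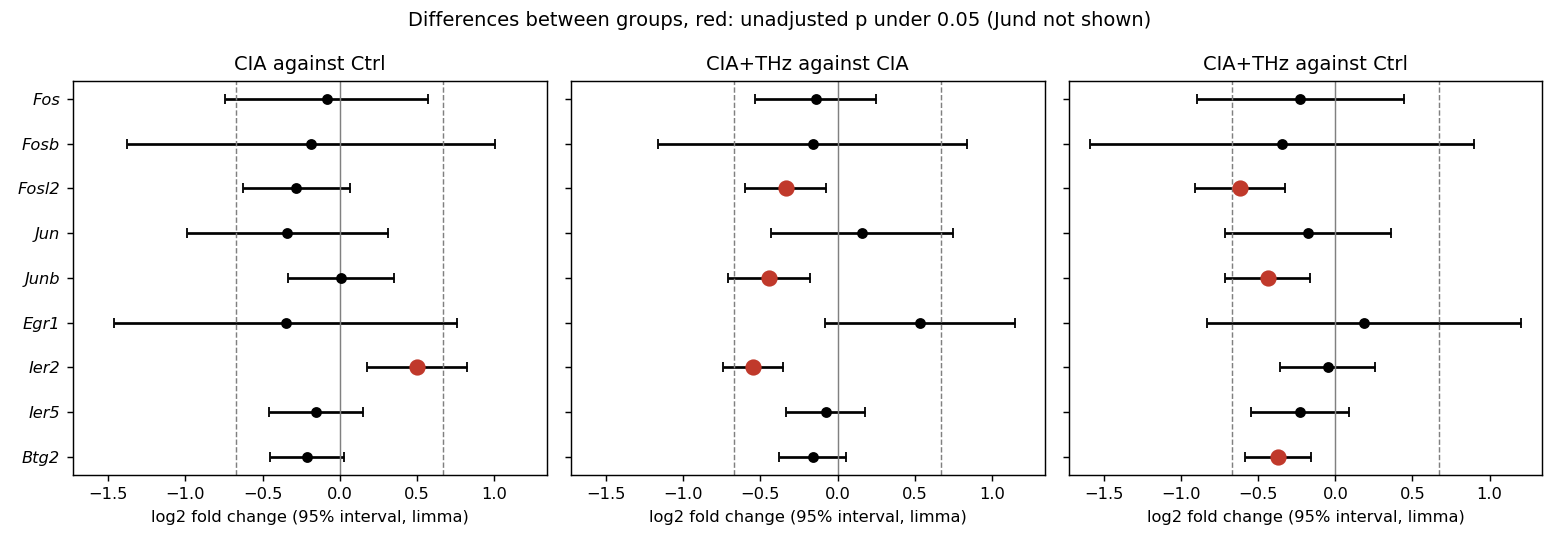
Log2 fold changes of 9 members with 95% intervals from limma in 3 comparisons, where red points have an unadjusted p under 0.05 and dashed lines mark the fold threshold of 0.67. Ier2 is higher in CIA against Ctrl (0.50) and lower in CIA+THz against CIA (-0.55), while the lower Fosl2, Junb and Btg2 of CIA+THz lose that p with FPKM as deposited, and Jund is left out for its wide interval.

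Other genes of the same kind were described from lists of related genes. Of 17 other AP-1 and related bZIP genes, 16 were tested, and Fosl1 was listed at 0 in all libraries. None of them fell at the criterion in CIA against Ctrl. Atf3, a stress-induced factor, was 2.20, 2.37 and 3.28 in Ctrl, 5.98, 5.42 and 5.32 in CIA, and 3.06, 2.42 and 3.58 in CIA+THz. The CIA mice were above all others, with a log2 fold change of 1.08 against Ctrl (SE 0.24, adjusted p = 0.101 by limma) and of -0.88 in CIA+THz against CIA (SE 0.20, adjusted p = 0.21). Nfil3, a bZIP factor, rose by 0.78 (adjusted p = 0.19) in CIA against Ctrl. From CIA to CIA+THz 3 fell, which were Atf3, Jdp2 with -0.75 (adjusted p = 0.378) and Batf with -0.68 (adjusted p = 0.346). These 3 calls, beside 4.54% of all genes called, were lost with FPKM as deposited, where the values were -0.61, -0.47 and -0.41, and with the ubiquitous scaling, where they were -0.67 (just short of the threshold), -0.53 and -0.47. Nfil3 lost its call with the ubiquitous scaling (0.56), while Atf3 kept it in CIA against Ctrl under both (1.11 and 0.87). The median of the list was 0.27 from Ctrl to CIA, -0.16 from CIA to CIA+THz, which became 0.11 as deposited, and -0.06 in CIA+THz against Ctrl, which became 0.19.

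Of 18 other Egr, Nr4a and Klf factors 16 were tested. In CIA against Ctrl Klf10, induced by TGF-beta, rose by 0.85 (adjusted p = 0.14), Nr4a1, an orphan nuclear receptor, by 0.82 (adjusted p = 0.27), and Nfil3, which is on both lists, as above. With the ubiquitous scaling no gene of this list was called in CIA against Ctrl, and as deposited Nr4a1 lost the call. None was called in CIA+THz against CIA, whereas Egr3 and Nr4a1 were called higher as deposited (both 0.68). Nr4a1 and Egr3 were both 1.23 higher in CIA+THz than in Ctrl (adjusted p = 0.12 and adjusted p = 0.213), and Egr3 is named here after its values were seen. Both calls held under the other scalings. The medians were 0.31 for CIA and 0.20 for CIA+THz against Ctrl, and -0.03 for CIA+THz against CIA, or 0.21 as deposited. Nr4a1 is also on the monocyte list, whose levels were higher in CIA.

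Of 40 other rapidly induced and feedback genes 37 were tested. In CIA against Ctrl Gadd45g, a stress gene, rose by 1.01 (adjusted p = 0.265), whereas Tob1, an antiproliferative relative of Btg2, and Tnf, the inflammatory cytokine, fell by 0.82 (adjusted p = 0.0625 by limma) and by 0.78 (adjusted p = 0.268). Tob1 was 25.3, 23.3 and 25.3 in Ctrl, 13.3, 15.6 and 13.1 in CIA, and 12.9, 15.4 and 14.5 in CIA+THz, so that both arthritic groups lay below Ctrl and overlapped with each other. Its call in CIA against Ctrl held under the other scalings, while that of Gadd45g was lost under both and that of Tnf as deposited. With the ubiquitous scaling 6 genes of the list were called lower in that comparison. Over all genes, 1487 were called there in either direction with that scaling, and 1118 on rescaled values. Between CIA+THz and CIA no gene of the list was called. At an unadjusted p under 0.05, 8 were lower, beside 7.33% of all genes, and none was higher. With FPKM as deposited none was lower at that p and 7 were higher, and with the ubiquitous scaling none was lower and 4 were higher. All genes shifted the same way. As deposited, 1133 of the 1199 genes called by the criterion in this comparison were higher. With the ubiquitous scaling the log2 fold changes of all genes stood 0.21 higher in the median than on rescaled values. Under both of these scalings Ptgs2, named after its values were seen, was called higher (1.74 and 1.68). Against Ctrl, Tob1, Tnf and Ier3 were called lower in CIA+THz, with -0.79, -1.35 and -0.91, of which Ier3 is named after its values were seen. As deposited Tnf kept the call (-1.07), and Tob1 (-0.48) and Ier3 (-0.61) lost it. The medians were -0.13 for CIA and -0.23 for CIA+THz against Ctrl, and -0.16 for CIA+THz against CIA, and the last 2 became 0.06 and 0.12 as deposited.

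Among the signals upstream, 15 of 17 listed SRF, TCF and CREB factors were tested and none was called in any comparison, with medians between -0.03 and 0.04, although other scalings made calls on genes named here after their values were seen. As deposited, Mrtfa was called higher against Ctrl in both arthritic groups (0.68 each) and Elk4 in CIA+THz against CIA (0.92). With the ubiquitous scaling Creb1 (-0.76) and Elk4 (-0.91) were called lower in CIA against Ctrl, and Elk4 (0.86) higher in CIA+THz against CIA. Of 26 kinases of the ERK, JNK and p38 pathways, Braf fell by 0.75 (adjusted p = 0.174) and Map3k8 by 0.68 (adjusted p = 0.225) in CIA against Ctrl, none was called in CIA+THz against CIA, and Map3k8 was called lower in CIA+THz against Ctrl, at -0.73 (adjusted p = 0.167). Braf kept its call under the other scalings, and Map3k8 lost both of its calls as deposited, at -0.65 and -0.44. Of the other kinases, Rps6ka5 was called higher in CIA+THz against CIA under both other scalings (0.78 and 0.72) and Rps6ka3 as deposited (0.67), and Map3k2 lower in CIA against Ctrl with the ubiquitous scaling (-0.68), all named after their values were seen. The medians of the kinases were between -0.06 and -0.01. As deposited they were 0.21 in CIA+THz against CIA and 0.29 in CIA+THz against Ctrl, and those of the SRF, TCF and CREB factors 0.32 and 0.33. With the ubiquitous scaling the kinases had medians of -0.23 in CIA against Ctrl and 0.15 in CIA+THz against CIA, and those factors -0.24 and 0.26. By limma, no gene of these 5 lists reached an adjusted p under 0.05 between any pair of groups on rescaled values or as deposited, and Tob1 alone did with the ubiquitous scaling, in CIA against Ctrl.

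Marker genes of blood cells moved between the same groups. All 12 neutrophil markers had lower levels in CIA+THz than in CIA mice, and their summed rescaled FPKM was 12688 to 21425 in Ctrl, 14765 to 19452 in CIA and 10849 to 12328 in CIA+THz. The sum over 12 ubiquitous genes was 10870 to 14791, 14318 to 17337 and 10050 to 11007, with 11 of 12 lower in CIA+THz than in CIA and a median log2 fold change of -0.16, beside -0.15 over the members. The medians were not alike in the other comparisons. In CIA against Ctrl 10 of the 12 ubiquitous genes were higher, with a median of 0.24 beside -0.20 over the members. In CIA+THz against Ctrl the medians were 0.04 and -0.29. T cell markers summed to 409 to 466, 324 to 363 and 402 to 504, B cell markers to 471 to 558, 513 to 652 and 608 to 790, and NK cell markers to 152 to 194, 56.5 to 120 and 101 to 153. Platelet markers summed to 4538 to 5613, 4287 to 5291 and 3589 to 4310, and 9 erythroid markers to 82629 to 128516, 100427 to 115025 and 56034 to 78399. No marker was at 0 in all libraries. The part of any of these cells in the levels of Fosl2, Junb and Btg2, which were also lowest in CIA+THz, was not tested.

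Among the 45 pairs of members, 33 had a positive Pearson correlation over the 9 libraries, with a median of 0.32, a lowest value of -0.62 between Ier2 and Egr1 and a highest of 0.93 between Fos and Fosb. Fosl2 correlated with Btg2 at 0.91, of which 0.56 was left within groups, and with Junb at 0.88 (0.87 within groups). The mean standardised profile of the members was highest in Ctrl mice 1 and 3, at 0.89 and 0.73, and lowest in CIA+THz mouse 1, at -0.81. The genes outside the list whose log2 values were most like that profile, of 9739 genes searched, were Ctnnb1, which encodes beta-catenin, at 0.95, Map3k15 at 0.93, Map3k3 at 0.91, Slc35a5 at 0.91 and Bcl6, a transcriptional repressor of lymphocytes, at 0.91. These values describe 9 libraries that share their scaling.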

How the data were processed

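Blood RNA of 9 mice was sequenced in paired-end mode on an Illumina HiSeq instrument after a TruSeq V2 preparation. The authors deposited a single matrix of FPKM values with a column for each library, in which 20926 genes are named by symbol. The submitters' processing notes name bcl2fastq 2.0, HISAT2, StringTie, DESeq2 and the build mm10, while their roles, the annotation and the strand setting are not given in the sources used here. FPKM gives no depth, so precision was judged from the spread between mice.

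Libraries were brought to 1 scale by the median-of-ratios method, based on 10312 genes with no 0 in any of the 9 columns. For the 12366 genes with a mean of at least 0.1, log2(rescaled FPKM + 0.1) was fitted with limma 3.58.1 in R 4.3.3 (eBayes with trend = TRUE), on the 6 libraries of a pair or on all 9 for the F-test, and p-values were adjusted by Benjamini-Hochberg over all genes. An exact permutation test of 3 against 3 cannot go below p = 0.1 and was not used. Groups came from the sample labels. The members and gene lists were chosen with earlier results of these data known. The genes named were the 10 members, from each list up to 4 genes past the criterion per comparison with a mean of at least 1, and the 5 genes most like the members' mean profile. A gene that this rule would name is not reported here. Coordinates are those of GENCODE on GRCm38, which is mm10. The alternatives were the FPKM without rescaling, a larger pseudocount (1), no filter or a mean of at least 1, a fit without the trend, all 9 libraries fitted together, a replicate block, every library left out in turn, adjusted p and, chosen after seeing the data, a scaling to 12 ubiquitous genes.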

Additional observations from a re-analysis of the deposited data

How the results depend on the processing

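With Benjamini-Hochberg adjusted p in place of unadjusted p, no member passed in any comparison, and the genes past the criterion numbered 19 of 1118 in CIA against Ctrl, 0 of 561 in CIA+THz against CIA, 13 of 975 in CIA+THz against Ctrl and 313 of 2629 across the 3 groups. With FPKM as deposited, 1 member (Egr1) and 1199 genes passed in CIA+THz against CIA, 1720 genes passed in CIA+THz against Ctrl, and 1 member had a p under 0.05 across the 3 groups. With the scaling to ubiquitous genes 1 member (Egr1) and 964 genes passed in CIA+THz against CIA, and with a pseudocount of 1 it was 283 genes. The members past the criterion fell from 1 (Jund) to 0 with no filter in both comparisons with Ctrl, and with no trend in CIA against Ctrl. Leaving out a library gave 0 to 1 members in both comparisons with Ctrl (without Ctrl mouse 2, Fosl2 passed at -0.72 in CIA+THz against Ctrl in place of Jund), and 726 to 1500 genes in CIA+THz against Ctrl, the highest without Ctrl mouse 3.

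Directions changed for small differences. With FPKM as deposited, CIA+THz against CIA became 0.14 for Fos, 0.058 for Fosb, 0.20 for Ier5 and 0.12 for Btg2, and CIA+THz against Ctrl became 0.080 for Fos, 0.12 for Jun, 0.26 for Ier2 and 0.076 for Ier5. With the scaling to ubiquitous genes, CIA against Ctrl became -0.21 for Junb, and CIA+THz against CIA became 0.075 for Fos, 0.012 for Fosb, 0.14 for Ier5 and 0.055 for Btg2. Leaving out a library in CIA against Ctrl moved Fos from -0.42 to 0.084, Fosb from -0.59 to 0.071, Junb from -0.093 to 0.11 and Egr1 from -0.78 to 0.030. In CIA+THz against CIA it moved Fosb from -0.47 to 0.060, Jun from -0.037 to 0.34, Jund from -1.47 to 1.79 and Ier5 from -0.14 to 0.013, and in CIA+THz against Ctrl it moved Egr1 from -0.24 to 0.57 and Ier2 from -0.16 to 0.065. The cause was not tested. The replicate numbers pair no animals, and libraries with the same number had correlations of their deviations between -0.052 and 0.031. With the replicate number as a block all 30 member differences kept their direction and their side of 0.05 (Ier2 in CIA+THz against CIA -0.55), as they did with a pseudocount of 1 and with all 9 libraries in 1 fit. A mean of at least 1 gave no value for Fosb. FPKM gives no counts, so the limit that depth sets on low values could not be measured.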
